A study of Mus musculus with 2 samples.

Results

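MHC class I molecules and the genes that supply them with peptide were described in the mouse T-ALL (T-cell acute lymphoblastic leukemia) named ALL211, a primary tumour, at 2 states of the transcription factor Ikaros. The genes were chosen by name: 15 genes of class I regulation, assembly and peptide supply, and every gene in the count table whose symbol marks it as a class I heavy chain of the H2-K, H2-D, H2-Q, H2-T or H2-M groups. MHC class II genes were left out. This gave 41 of the 27179 genes in the table, 26 of them heavy chain genes. Of the 41, 30 had at least 1 CPM (counts scaled to the size of the library) in at least 1 library, and these are called measured. All 30 reached that level in the untreated library.

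The leukemia carries Vav-tTA and TRE-GFP-shIkaros in both groups: a tetracycline-regulated activator, under a Vav promoter active in blood cells, switches on a hairpin against Ikaros that is linked to GFP, and doxycycline (Dox) switches it off. The untreated library came from GFPhigh leukemia cells sorted from the spleens of leukemic recipient mice, and the other library from GFPmid cells of recipients given Dox for 3 days. Each condition had 1 library of this 1 leukemia, while the series design speaks of 2 mice per condition; whether their RNA was pooled, and the age and strain of the mice, is not stated in the labels. With 1 library each there is no replicate check and no p-value, and treatment, sort gate and mouse cannot be told apart.

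Class I molecules display peptides from inside the cell to CD8 T cells and are also read by natural killer cells. A heavy chain pairs with beta-2-microglobulin and is loaded in the endoplasmic reticulum with peptides that proteasomes cut and the TAP transporter carries in. Interferons and the transactivator NLRC5 raise many of these genes together. Some T-cell leukemias carry the thymus leukemia antigen, a nonclassical class I molecule that presents no peptide.

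The libraries held 16960042 and 16484613 counts. Ikzf1, which encodes Ikaros, was at 120.5 CPM untreated and 1229 CPM with Dox, the direction the labels give. T-lineage markers were abundant in both libraries, with summed levels of 10104 and 13856 CPM, the highest being Thy1 (2145 and 1920 CPM) and Trbc2 (1783 and 2612 CPM). The 16 T-lineage markers had a median log2 fold of 0.62. At least 2-fold higher were 2 of 16 (12.5%), near the 13.6% of all measured genes. The summed levels of markers of other cells were below those of T-lineage markers and were higher with Dox. Summed CPM went from 84.5 to 372.5 for 18 macrophage and monocyte markers, 118.1 to 177.1 for 10 dendritic cell markers, 348.0 to 958.3 for 11 B-cell markers, 12.1 to 79.1 for 9 erythroid, 10.9 to 13.3 for 8 natural killer, 5.10 to 10.1 for 9 neutrophil and 253.8 to 357.3 for 7 stromal and endothelial markers. The abundant genes of these lists were Mpeg1 (1.64 and 96.8 CPM) and Itgam (60.6 and 181.0 CPM), Bst2 (112.8 and 121.6 CPM) and Itgax (0.117 and 10.9 CPM), Ighm (346.4 and 948.2 CPM) and Ighd, Hba-a2 and Hbb-b1, Tbx21 and Prf1, S100a9 and Ngp, and Pecam1 (166.2 and 316.8 CPM) and Col1a2 (76.4 and 32.8 CPM). The stromal and endothelial sum was higher through Pecam1, while 0 of the 4 measured genes of that list were at least 2-fold higher and 2 were lower (median log2 fold -0.54). Of all measured genes, 13.6% were higher and 13.0% lower by as much. At 0 counts in both libraries were Marco among macrophage markers, Pax5 and Ebf1 among B-cell markers and Klra1 among natural killer markers. At 0 in the untreated library alone were Cd14 and Mertk, the dendritic cell markers Clec9a, Siglech, Zbtb46, Batf3 and Cd209a, and Ms4a1, Jchain, Prf1, Klrk1, Ncr1, Mpo, Kdr and Cdh5. At 0 in the Dox library alone were Cxcr2, Retnlg and Vwf.

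Most class I pathway genes were higher in the Dox library, and all members at least 2-fold lower were heavy chain genes. Of 30 measured members, 13 were higher with Dox by 2-fold or more and 4 lower by 2-fold or more, against 13.6% and 13.0% of the 12125 genes measured. Thus 43.3% of members were in the higher group, and the 13.3% in the lower group lies near the background. The members' median log2 fold was 0.57, against -0.01 for all measured genes, and 25 of 30 were above 0 (24 with total-count or DESeq2 scaling, where Psme2 turned negative). The T-lineage markers had a median close to that of the members, as given above. Log2 folds compare log2 CPM after a prior count of 2 was added, and each interval is an exact 95% interval of the count ratio that covers counting error only. By the stricter rule that the whole interval lie beyond 2-fold, 8 members were higher and 2 lower, against 9.11% and 8.38% of all measured genes. At 4-fold, 2 members (Nlrc5 and H2-T24) were higher and 1 (H2-T3) lower, against 4.46% and 3.07%. In bulk RNA, fewer cells of a type and less RNA per cell cannot be told apart.

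**Figure D1:**
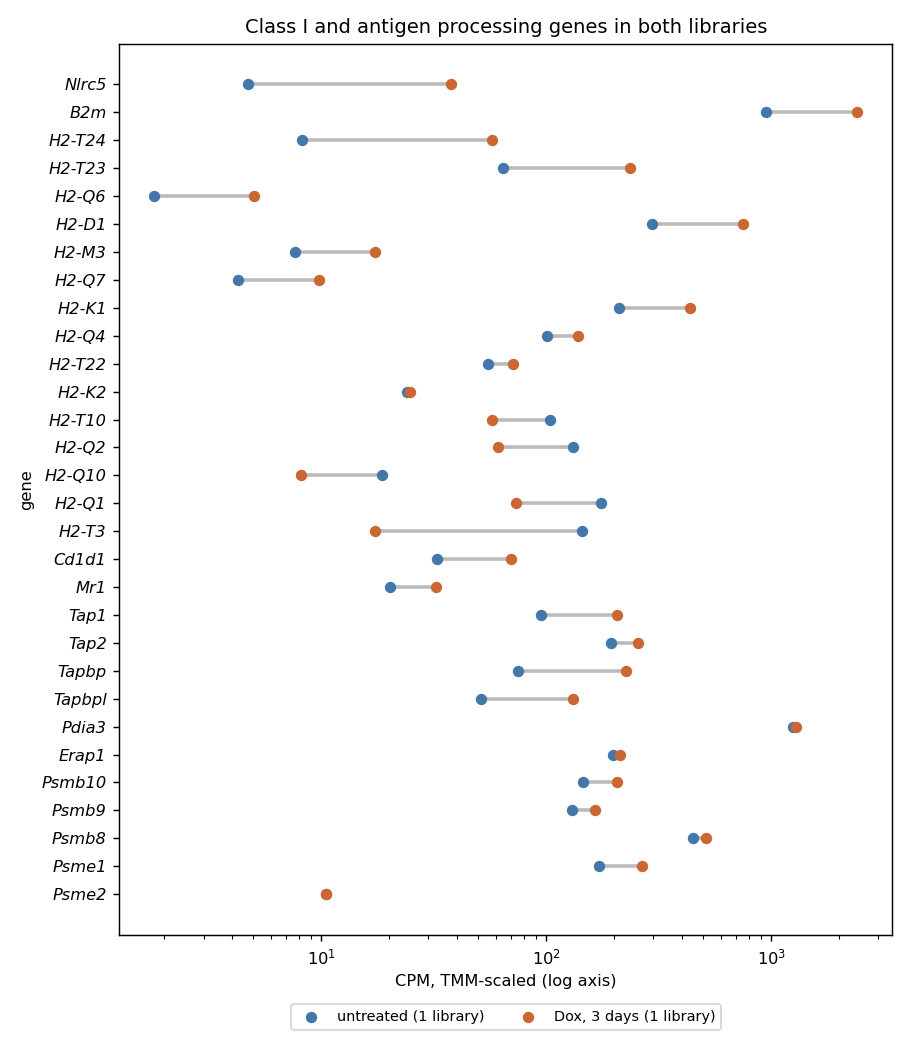
Level of each of the 30 measured members in CPM (log axis) in the untreated library (blue) and the Dox library (orange), 1 library each. The lowest pair is that of H2-Q6 at 1.82 and 5.01 CPM. B2m, at 953.1 and 2416 CPM, is the highest point with Dox, and Pdia3, at 1256 CPM, the highest untreated. The widest gaps are those of Nlrc5, H2-T24 and H2-T3.

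The regulator of the pathway stood highest among the members. Nlrc5 encodes the transactivator that assembles on class I promoters. It had 81 counts (4.74 CPM) in the untreated library and 618 counts (37.7 CPM) in the Dox library, 7.95-fold higher (interval 6.30 to 10.2; log2 fold 2.96). Its level per kilobase of transcript stayed low beside its target genes, at 0.683 and 5.43 RPKM (CPM per kilobase of the deposited gene length).

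B2m, the light chain shared by nearly all class I molecules, was the most abundant member per length in both libraries. It was at 953.1 CPM untreated and 2416 CPM with Dox, from 16271 and 39576 counts, 2.54-fold higher (interval 2.49 to 2.58). Per length it ranked 50th of the 12125 measured genes in the untreated library and 12th in the Dox library, at 1111 and 2816 RPKM. No 50-base word of its transcripts occurred in those of another annotated gene.

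The classical heavy chains H2-K1 and H2-D1, which present peptide to CD8 T cells, were both higher with Dox. H2-D1 was at 295.5 CPM untreated and 750.8 CPM with Dox (log2 fold 1.34, interval 1.30 to 1.39), a fold close to that of B2m. H2-K1 was at 211.5 and 436.3 CPM (log2 fold 1.04, interval 0.99 to 1.10), so its interval reaches just under 2-fold. The fold of H2-D1 exceeded that of H2-K1, and their counting intervals did not overlap.

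Among nonclassical heavy chains, 5 genes were at least 2-fold higher. H2-T24 went from 8.20 CPM (140 counts) to 57.2 CPM (937 counts), 6.98-fold higher (interval 5.84 to 8.39). H2-T23, which encodes the heavy chain of Qa-1, a ligand of the CD94/NKG2 receptors of natural killer cells, was at 64.1 and 236.5 CPM, 3.69-fold higher (interval 3.45 to 3.95). H2-M3, which presents peptides that begin with formyl-methionine, was at 7.62 and 17.4 CPM. H2-Q7, which encodes Qa-2, and its neighbour H2-Q6 were at 4.28 and 9.77 CPM and at 1.82 and 5.01 CPM. These last 3 rest on few counts, and their intervals extend below 2-fold.

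A second set of heavy chains was lower with Dox. H2-T3 encodes the thymus leukemia antigen named above. It had 2453 counts (143.7 CPM) untreated and 284 counts (17.3 CPM) with Dox, 8.29-fold lower (interval 7.33 to 9.40; log2 fold -3.04), the largest difference in either direction among the members. H2-Q1 was at 174.7 and 73.6 CPM, 2.37-fold lower (interval 2.22 to 2.54). H2-Q2 was at 131.2 and 61.0 CPM, 2.15-fold lower. H2-Q10, known as a secreted class I molecule of the liver, was at 18.6 and 8.12 CPM, 2.29-fold lower. The intervals of H2-Q2 and H2-Q10 reached inside 2-fold.

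The remaining heavy chains lay within 2-fold. H2-Q4 had a log2 fold of 0.46 (interval 0.36 to 0.55) and H2-K2, a transcribed pseudogene, 0.03 (interval -0.17 to 0.24). H2-T22 and H2-T10 belong to a pair whose products bind gamma delta T-cell receptors without peptide, although the annotation lists the H2-T10 of this genome as a transcribed pseudogene. H2-T22 was at 55.3 and 71.3 CPM (log2 fold 0.37) and H2-T10 at 103.7 and 57.5 CPM (log2 fold -0.85), opposite signs for near copies. The other 11 heavy chain genes, all of the H2-M group, had at most 4 counts in a library: H2-M5 had 4 and 1, H2-M10.6 0 and 2, H2-M2 1 in each, H2-M10.2, H2-M10.4 and H2-M1 1 in a single library, and H2-M9, H2-M10.1, H2-M10.3, H2-M10.5 and H2-M11 0 in both. A count of 0 allows up to 3 counts, or 0.176 CPM untreated and 0.183 CPM with Dox.

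**Figure D2:**
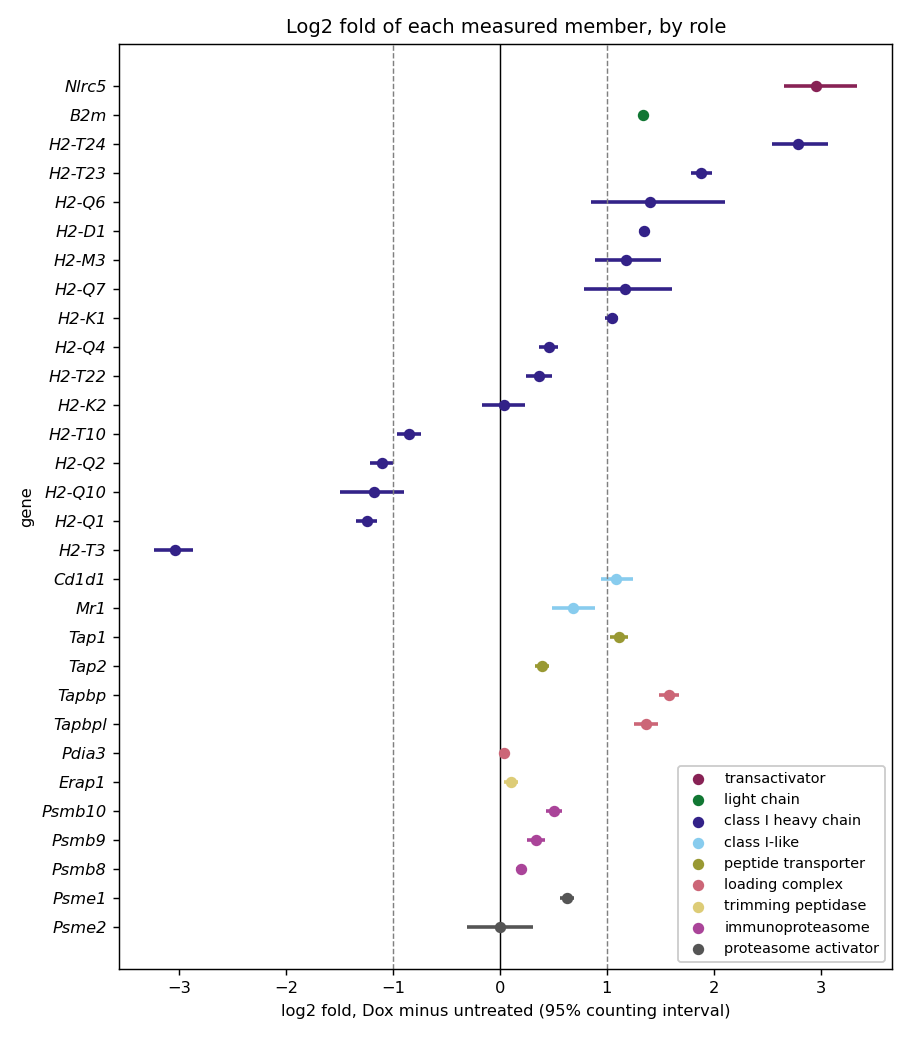
Log2 fold of Dox minus untreated for the 30 measured members, coloured by role, with 95% counting intervals as bars and dashed lines at 2-fold. The points left of the lower 2-fold line are H2-T3, H2-Q1, H2-Q10 and H2-Q2, while all members outside the heavy chains lie above 0, Psme2 by 0.003 (below 0 with total-count or DESeq2 scaling).

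The pool of heavy chain transcripts therefore had a different makeup in each library. H2-K1 and H2-D1 together took 37.7% of heavy chain counts in the untreated library (8656 of 22965; Wilson 95% interval 37.1% to 38.3%) and 60.4% in the Dox library (19443 of 32183; 59.9% to 60.9%). Per length their share was 38.0% and 58.7%. H2-T3 took 10.7% (10.3% to 11.1%) of heavy chain counts untreated and 0.882% (0.786% to 0.991%) with Dox. The H2-Q genes together took 32.1% and 15.1%, and H2-T23 4.76% and 12.0%. Summed over all measured heavy chains, the level per length was 787.2 RPKM untreated and 1189 RPKM with Dox, 1.51-fold higher. Within it, H2-K1 and H2-D1 summed to 298.8 and 697.6 RPKM and the remaining heavy chains to 488.4 and 491.1 RPKM. That near-equal remainder holds opposite differences, with H2-T23 at 48.7 and 179.6 RPKM and H2-T24 at 3.76 and 26.2 RPKM, against H2-T3 at 65.98 and 7.96, H2-Q1 at 86.3 and 36.4 and H2-Q2 at 119.3 and 55.5 RPKM. B2m stood at 1.41 times the summed heavy chain level per length untreated and 2.37 times with Dox. These intervals treat reads as independent and cover counting error only. Reads copied by PCR are not independent molecules, so the intervals may be too narrow even for that.

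**Figure D3:**
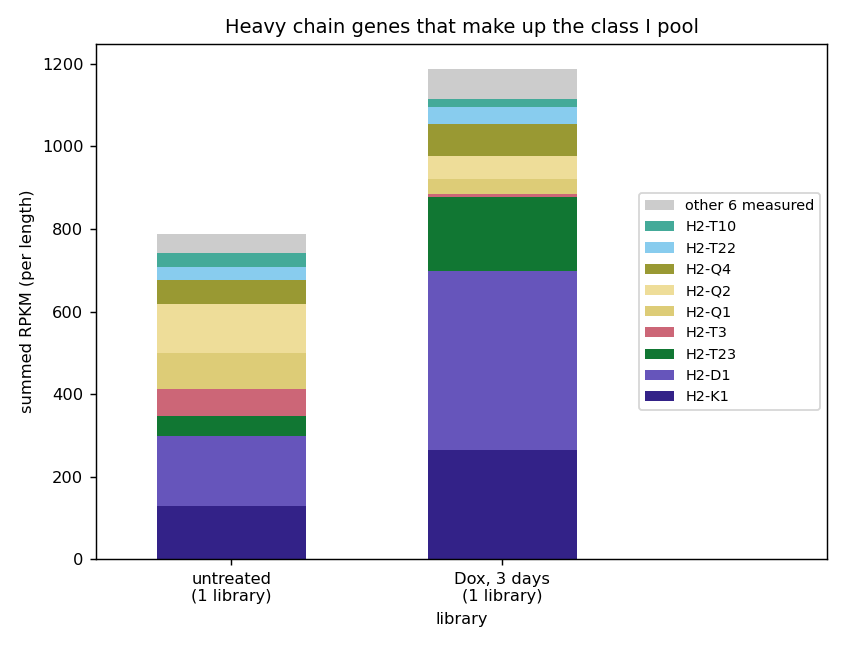
Summed level per length (RPKM) of the 15 measured heavy chain genes, stacked by gene, in the untreated and Dox libraries (1 each). The bar is 787.2 RPKM untreated and 1189 RPKM with Dox; the H2-K1, H2-D1 and H2-T23 segments grow, while the H2-T3, H2-Q1 and H2-Q2 segments shrink.

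Heavy chain genes resemble each other, so reads may be assigned among them. They also differ between MHC haplotypes, and the haplotype of these mice is not stated in the labels. The counts were made against the haplotype of the mm10 genome, so the levels and shares of single heavy chain genes may depend on how well their alleles match it, which was not tested. In the GENCODE transcripts of the GRCm38 genome, 9.63% of the distinct 50-base words of H2-K1 and 12.8% of those of H2-D1 also occurred in another gene. The share was 34.5% for H2-T22, 32.9% for H2-T10 (31.7% with H2-T22), 32.0% for H2-Q6 and 26.4% for H2-Q7. For H2-Q4 the share was 21.8%, for H2-Q10 19.0%, for H2-Q2 16.1%, for H2-Q1 15.0% and for H2-T23 13.6%. It was 3.17% for H2-T24 and 0.894% for H2-T3, the 2 heavy chains that differed most in each direction. Neither the read length nor the handling of reads with several alignments is given in the sources used here. Among the 18 measured members with under 10% shared words, 8 were higher and 1 lower by 2-fold or more, with a median log2 fold of 0.66.

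All 26 heavy chain genes lie in the MHC of chromosome 17, with Tapbp, Tap1, Tap2, Psmb8 and Psmb9 among them. From the first to the last of these 31 genes (GRCm38 chr17:33919478-37483554), 20 measured members had a median log2 fold of 0.42, with 9 of them 2-fold higher or more and 4 lower by as much. The 95 other measured genes there, without class II genes, had a median of 0.04, with 13 (13.7%) higher and 6 (6.32%) lower by 2-fold or more. H2-T24, H2-T23 and H2-T3 lie in the same stretch, at chr17:36003471-36020800, chr17:36029977-36032701 and chr17:36185571-36190151, and differ in direction.

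Promoters of 33 of the 41 genes were in the RefSeq promoter table (GRCm38.p6, 250 bases before to 50 after each start), as 36 promoters; Nlrc5, Tap2, Tapbpl, Cd1d1, H2-K2, H2-Q1, H2-T10 and H2-T24 had none there. Stretches before the start are shown for 4 genes higher with Dox (B2m, H2-D1, H2-T23 and Tapbp) and 2 lower (H2-Q2 and H2-T3), each 5′ to 3′ on the gene's strand. Capitals mark the letters of 2 motifs found on either strand: CCAAT or its reverse complement, the core bound by NF-Y, which reads the Y box of class I promoters, and GAAA, any 2 bases and GAAA again, or its reverse complement, the core of the interferon-stimulated response element.
B2m: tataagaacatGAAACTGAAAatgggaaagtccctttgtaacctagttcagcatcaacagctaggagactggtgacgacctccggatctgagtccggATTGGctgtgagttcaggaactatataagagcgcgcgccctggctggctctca
H2-D1: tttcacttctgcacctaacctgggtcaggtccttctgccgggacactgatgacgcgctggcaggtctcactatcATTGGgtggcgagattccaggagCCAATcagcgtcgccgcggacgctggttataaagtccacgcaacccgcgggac
H2-T23: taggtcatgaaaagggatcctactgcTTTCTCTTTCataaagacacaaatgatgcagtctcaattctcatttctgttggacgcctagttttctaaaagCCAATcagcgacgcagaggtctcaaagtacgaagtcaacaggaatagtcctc
Tapbp: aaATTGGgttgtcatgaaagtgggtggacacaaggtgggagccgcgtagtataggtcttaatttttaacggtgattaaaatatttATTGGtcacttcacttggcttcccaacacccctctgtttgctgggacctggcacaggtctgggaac
H2-Q2: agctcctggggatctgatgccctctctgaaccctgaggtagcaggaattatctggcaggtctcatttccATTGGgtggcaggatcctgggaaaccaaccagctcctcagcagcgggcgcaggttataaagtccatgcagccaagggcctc
H2-T3: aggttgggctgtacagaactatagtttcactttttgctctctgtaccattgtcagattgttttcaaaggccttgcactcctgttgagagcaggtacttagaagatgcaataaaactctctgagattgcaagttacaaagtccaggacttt

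These stretches lie at chr2:122147537-122147686 (plus strand), chr17:35262944-35263093 (plus), chr17:36032702-36032851 (minus), chr17:33919228-33919378 (plus), chr17:35342157-35342306 (plus) and chr17:36190152-36190301 (minus), in the order above. They end at the last base before the start, except that of Tapbp, which covers bases 250 to 100 before it. A CCAAT was found in all 10 promoters of the 9 members at least 2-fold higher that had a promoter, in 1 of 3 promoters of members lower and in 4 of 11 promoters of members within 2-fold. It was also in 11 of 12 promoters of the unmeasured members, which are H2-M genes, and in 10 of 12 of measured heavy chains. Of all 32851 promoters in the table, 37.4% held it. The interferon core was in 5 of 24 promoters of measured members (B2m, H2-T23, H2-T22, Erap1 and Psme1), and in 3.44% of all promoters. By group, it was in 2 of 10 promoters of members higher, 0 of 3 of members lower and 3 of 11 of members within 2-fold. The remaining motif searched, TTCNNNGAA, a palindrome and the core of the interferon-gamma activated site, was in 2 of 24 promoters of measured members (8.33%; Psmb8 and H2-M3) and in 8.30% of all promoters. CCAAT and the interferon core stand together in the windows of B2m and H2-T23 above. The promoter of H2-T22, a member within 2-fold, also holds both. A match describes letters and is not shown to be a bound site.

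Of the 2 class I-like genes of the set, 1 was at least 2-fold higher. Cd1d1, which presents lipids to natural killer T cells, was at 32.6 and 69.5 CPM (log2 fold 1.09, interval 0.94 to 1.24, which reaches inside 2-fold). Of its 50-base words, 19.1% also occur in Cd1d2, a gene outside the set, so reads may be assigned between these 2 genes. Mr1, which presents vitamin B metabolites to mucosal-associated invariant T cells, was at 20.2 and 32.5 CPM (log2 fold 0.68). Of a separate list of 16 class I-like genes outside the set, 12 were in the table and 5 measured. Their median log2 fold was -0.02 (0.01 with upper quartile scaling and 0.19 with the gene length trend removed). Of the 5, 2 were at least 2-fold higher and 1 lower, against 13.6% and 13.0% of all measured genes. Fcgrt, the neonatal Fc receptor gene, was at 9.90 and 52.8 CPM (log2 fold 2.40), Cd1d2 had 23 and 48 counts (1.06), and Hfe, of iron uptake control, had 115 and 44 counts (-1.29). Ulbp1, a ligand of the receptor NKG2D, had a log2 fold of -0.54.

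Of the 5 transport and loading genes, Tapbp, Tapbpl and Tap1 were at least 2-fold higher, and Tap2 and Pdia3 lay within 2-fold. Tapbp encodes tapasin, which holds the heavy chain at the transporter. It was at 75.3 CPM untreated and 225.6 CPM with Dox, 3.00-fold higher (interval 2.81 to 3.20). Tapbpl, which encodes a tapasin-related peptide editor, was at 51.1 and 132.0 CPM (log2 fold 1.37). The subunits of the transporter differed. Tap1 was at 95.02 and 205.8 CPM (log2 fold 1.11, interval 1.03 to 1.20) and Tap2 at 195.0 and 255.8 CPM (log2 fold 0.39, interval 0.33 to 0.46), so that Tap1 per length was 0.411 of Tap2 untreated and 0.679 with Dox. Pdia3, a disulfide isomerase that serves many glycoproteins besides class I, was at 1256 and 1289 CPM, and the trimming peptidase gene Erap1 at 197.8 and 212.6 CPM, log2 folds of 0.04 and 0.10.

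As a list, the chaperones that work beside these genes did not share their direction. Of 15 endoplasmic reticulum folding and loading partners, 0 reached 2-fold in either direction, against 13.6% higher and 13.0% lower of all measured genes. Of the 15, 11 had a negative log2 fold and 4 a positive one (median -0.16). With a trend with gene length removed, 9 were negative and 6 positive, and the median was -0.21. Calr, which encodes calreticulin of the loading complex, was at 717.7 and 473.1 CPM (log2 fold -0.60). Canx, which encodes calnexin, was at 601.8 and 308.7 CPM (-0.96), Pdia6 had -0.99 and Hsp90b1 -0.66.

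Peptide supply differed little in the members. The 3 immunoproteasome subunits, which replace the constitutive catalytic subunits in lymphoid and interferon-treated cells, were already abundant in the untreated library. Psmb8 was at 449.8 and 516.1 CPM (log2 fold 0.20, interval 0.15 to 0.24), Psmb9 at 130.4 and 164.7 CPM (0.34) and Psmb10 at 145.8 and 207.3 CPM (0.51). Their counterparts Psmb5, Psmb6 and Psmb7 had log2 folds of -0.40, -0.40 and -0.51. The ratio of each immune to constitutive subunit, per length, was therefore higher with Dox: 3.60 and 5.46 for Psmb8 to Psmb5, 0.746 and 1.24 for Psmb9 to Psmb6, and 0.401 and 0.811 for Psmb10 to Psmb7. All 3 ratios moved in the same direction, though no subunit reached 2-fold.

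**Figure D4:**
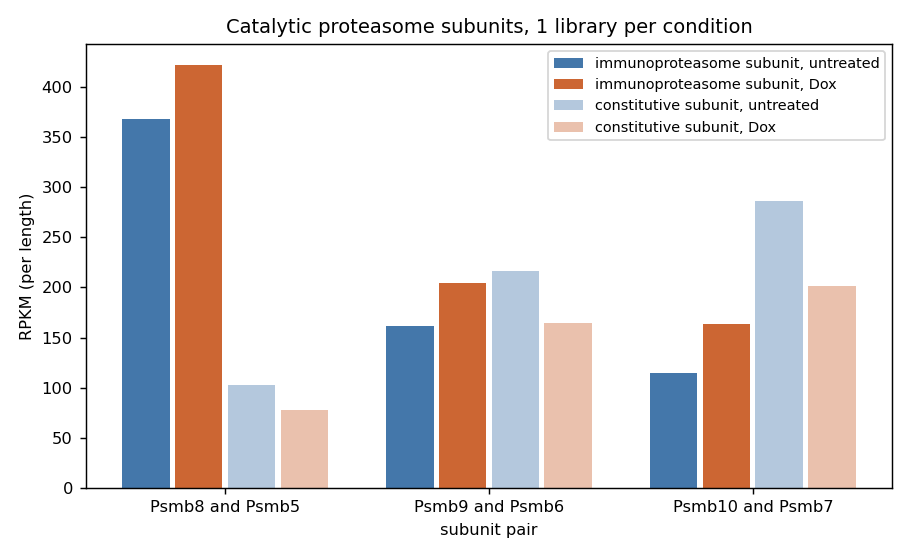
Level per length (RPKM) of the catalytic proteasome subunits in both libraries (1 each): immunoproteasome subunits in full colour and their constitutive counterparts in pale colour. Psmb8 stands above Psmb5 in both libraries, and Psmb9 passes Psmb6 in the Dox library (204.3 and 164.7 RPKM).

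The proteasome activator genes differed from each other. Psme1, of the interferon-inducible activator ring, was at 172.6 and 266.8 CPM (log2 fold 0.63, interval 0.56 to 0.70), whereas Psme3, of the nuclear activator, was at 414.2 and 217.8 CPM (log2 fold -0.93). Psme2, the partner of Psme1, had 180 and 173 counts, an uncertain level, since 28.3% of its 50-base words occur in Psme2b. Of 18 other proteasome genes, 1 was at least 2-fold higher, Psme4 (log2 fold 1.03), and 17 had a negative log2 fold (median -0.29; with a trend with gene length removed, 14 were negative and the median was -0.10), among them Psma7 (-0.59). Of 10 cytosolic peptidases, 2 were at least 2-fold lower and 0 higher (median -0.21). For both lists, the shares of all measured genes were 13.6% higher and 13.0% lower. Lap3, a leucine aminopeptidase that trims and destroys free peptides, was at 107.3 and 19.8 CPM (log2 fold -2.43), and Thop1, an oligopeptidase with that role, at 78.6 and 20.6 CPM (-1.93). Lnpep had 0.94 and Rnpep -0.67.

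Regulators of class I genes were higher as a list: 13 of 29 were higher by 2-fold or more and 0 lower by as much, against 13.6% and 13.0% of all measured genes. Their median log2 fold was 0.79. Irf1, which binds the response element of class I promoters, was at 120.1 and 286.7 CPM (1.25), Irf2 had 1.21, Irf7 3.10 and Usp18, a feedback inhibitor of interferon signalling, 2.55. The partners of NLRC5 at the promoter differed less, with Rfx5 at 11.8 and 24.1 CPM (1.02) and Rfxap at 28.6 and 36.0 CPM (0.33). The NF-Y subunit genes Nfya, Nfyb and Nfyc, chosen after their values were seen, had log2 folds of -0.43, -0.33 and -0.20. Irf8, a factor of myeloid and dendritic cells among others, had 67 and 507 counts (2.94), and Ciita, the class II transactivator, 4 and 185 counts (5.01). Ciita is counted both in this list and among the class II genes below. At 0.234 CPM untreated, it passed the filter through the Dox library alone.

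**Figure D5:**
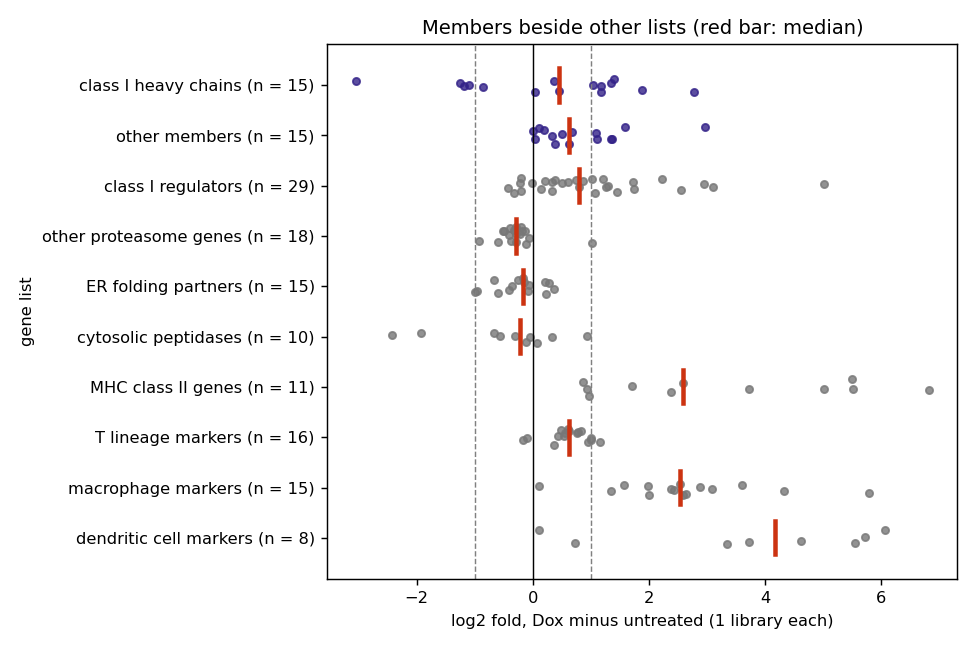
Log2 fold of Dox minus untreated (1 library each) for every measured gene of the class I heavy chains, the other members, 5 further pathway lists and 3 marker lists; red bars are medians and dashed lines mark 2-fold. Heavy chains spread from -3.04 to 2.78 around a median of 0.46, and the other members lie from 0.003 to 2.96 around 0.63. Class II genes and the macrophage and dendritic cell markers lie further right. These last lists include genes that passed the filter through the Dox library alone.

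Genes of antigen-presenting cells were higher in the same library, and their part in the class I values was not tested. Of 11 class II genes, 8 were higher by 2-fold or more, with 0 lower by as much and a median of 2.59. Of all measured genes, 13.6% were higher and 13.0% lower by as much. Without Dox, 7 of the 11 had 1 CPM or more, and the 3 genes within 2-fold were all among these 7. The rest passed the filter through the Dox library alone. Cd74 was at 5.74 and 268.7 CPM, H2-Aa at 2.69 and 127.5 CPM and H2-Eb1 at 0.879 and 112.7 CPM. Of 15 measured macrophage and monocyte markers, 14 were at least 2-fold higher (median 2.53), and of 8 measured dendritic cell markers 6 were (median 4.18). Untreated levels reached 1 CPM for 7 and 2 of them, and the rest passed the filter through the Dox library alone. The 2 dendritic cell markers at that level untreated lay within 2-fold, so the 6 higher ones all passed through the Dox library alone. The 1 macrophage and monocyte marker within 2-fold was among the 7. In CPM gained from untreated to Dox, the 18 macrophage markers summed to 288.0, the 10 dendritic cell markers to 59.0 and the 11 class II genes to 676.9. The gain was 1463 for B2m, 455.3 for H2-D1 and 224.8 for H2-K1. CPM is not per length, and marker sums do not measure the class I RNA of such cells. These gains therefore cannot be compared as amounts.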

How the data were processed

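RNA was sequenced from FACS-sorted ALL211 leukemia cells, 1 library per condition. The authors deposited raw counts of reads by Entrez gene. The mm10 build, featureCounts and CASAVA 1.8.2 are named in the submitters' processing notes; no aligner, strand setting or annotation is given there. The gene length column is deposited by the authors as an annotation. Without a known strand setting, overlapping and antisense genes cannot be told apart.

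The count table of the whole series matched the sample tables (0 genes differed). Symbols came from RefSeq for 25275 genes and GENCODE for 18. Counts were scaled with TMM in edgeR 4.0.16 (R 4.3.3); log2 folds used a prior count of 2, and intervals are exact Clopper-Pearson intervals of the count ratio. Genes with at least 1 CPM in 1 library were kept. No test was possible with 1 library per condition. The calculation was tested on simulated Poisson counts. Alternatives were total-count, DESeq2 1.42.0 and upper quartile scaling, other prior counts, filters and thresholds, a gene length trend (statsmodels 0.14.6), and leaving out heavy chains or, added after seeing the data, members with shared words. Python 3.11.15 with scipy 1.17.1 was used.

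The members and lists were chosen with earlier results of these data known. Every member was named; of each other list the 4 genes with the largest absolute log2 fold and some fixed genes, and of marker lists the 2 most abundant genes and those at 0, were named, except for some genes that are not reported here. A planned description of protein sequences was not made.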

Additional observations from a re-analysis of the deposited data

How the results depend on the processing

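Differences between mice, sorts and library preparations could not be measured with 1 library per condition. No paired analysis was possible because each condition has 1 library and the result comes from no test. Leaving out a replicate was not possible either. Under 3 other scalings, 2 other prior counts and filters of at least 5 CPM in 1 library or a mean of at least 1 CPM, 13 members stayed at least 2-fold higher and 4 lower, with no member changing side. Among genes with at least 1 count in both libraries together, 36 members were kept, 14 higher and 4 lower. The shares of all genes kept were then 17.28% higher and 11.7% lower. The added higher member was H2-M10.6, with 0 and 2 counts.

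With a 4-fold threshold, 2 members were higher and 1 lower, with 1 heavy chain and 0 processing and assembly members higher, 5 regulators and 1 class I-like gene higher, 1 peptidase lower, and 0 other proteasome genes higher and 0 class I-like genes lower. With the counting interval wholly beyond 2-fold, 8 members were higher and 2 lower, with 3 heavy chains and 1 class I-like gene higher, and 0 other proteasome genes higher and 0 class I-like genes lower. Both rules are stricter by construction. Without heavy chain genes, 6 of 15 measured members were higher and 0 lower. Among the 18 measured members with under 10% shared 50-mers, 8 were higher and 1 lower. For both sets the shares of all measured genes were 13.6% higher and 13.0% lower.

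With the gene length trend removed, the members' median log2 fold was 0.70, H2-Q2 came inside 2-fold, 0 other proteasome genes were higher and 1 endoplasmic reticulum partner was lower; 1 such partner was also lower with total-count and with DESeq2 scaling. With a prior count of 5, and with at least 5 CPM, 1 class I-like gene was higher. The log2 fold of Psme2, near 0, changed sign with total-count and with DESeq2 scaling (-0.02 in each), and that of no other measured member did under the alternatives run.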
